A study of Mus musculus with 36 samples.

Results

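The 32 genes described here are markers of the endothelium, the cell layer that lines blood and lymphatic vessels. They were chosen by gene symbol in the deposited FPKM table and joined by Ensembl identifier to the deposited counts, and all 32 were found among 50833 genes with counts and 55052 genes with FPKM values. RNA came from mouse embryos of strain B6CBAF1 at stage E12.5, when the limb skeleton is still forming. The forelimb pair of a single embryo was cut into a distal portion, the future hand, and a proximal portion. Embryos were wild type (WT) or carried 1 of 5 alleles, Del(CBS1) and the longer series Del(CBS1-2), Del(CBS1-3), Del(CBS1-4) or else Del(CBS1-5), from which 1 or several sites bound by the chromatin-looping protein CTCF are missing at the Hoxd gene cluster. The 12 groups of tissue and genotype hold 3 libraries each, 36 in all. The labels used here do not say whether embryos carried an allele on both chromosomes.

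Endothelial cells sprout and branch in response to VEGF, which binds the receptors Flt1, Kdr and Flt4, and vessels mature through angiopoietins acting on Tek, with Tie1 as a partner receptor. Transcription factors of the ETS family, among them Erg, and SoxF factors, Sox7, Sox17 and Sox18, maintain endothelial gene expression. Arteries are set apart by Notch signalling and gap junction proteins, and lymphatic vessels arise from veins under the control of Prox1. In the limb bud a capillary plexus invades the mesenchyme early, before cartilage and muscle form.

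Total counts per library ran from 11062069 to 17727891. Levels of 1 gene across libraries are given as CPM (read counts relative to library size, scaled by TMM over all 36 libraries), and levels of different genes as the authors' FPKM, which takes gene length into account. Tests are edgeR quasi-likelihood F tests, and a gene is said to have been called, or to be higher or lower, when its p, adjusted by the method of Benjamini and Hochberg across every gene in the fit, was under 0.05. Differences are log2 fold changes ± standard error (SE). The defining markers of endothelium, themselves members, were detected in every library: Cdh5 lay between 94.0 and 149 CPM, Pecam1 between 55.6 and 90.1 CPM and Kdr between 54.6 and 92.7 CPM. In the distal WT libraries 9 of 10 distal limb genes were higher, against 13.6% of all genes, and 8 of 10 proximal limb genes were lower, against 17.1%. These counts go with the tissue labels but are no independent check, since the lists were chosen with earlier results of these data known. Each sample is a whole piece of limb, in which fewer endothelial cells and less endothelial RNA per cell cannot be told apart.

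The genes described most closely lie, in mm10, at chr8:104101625-104144511 (Cdh5), chr11:106654217-106750628 (Pecam1), chr5:75932827-75978458 (Kdr), chr16:95359169-95586593 (Erg) and chr8:71497765-71511752 (Plvap). Exons of 10 of the 32 members overlap those of another gene, and whether counting used strand is not given in the sources used here. In WT forelimbs the most abundant members by FPKM were Egfl7, a secreted vessel protein, Erg and Cdh5, the adhesion molecule of endothelial junctions. Exons of Egfl7 share 264 bases with Gm20532 and 73 bases with Mir126a on the same strand, so its level and its rank are uncertain. Egfl7 reached 26.3 ± 0.49 FPKM in distal and 31.1 ± 1.47 in proximal tissue (SD, n = 3), Erg 26.1 ± 3.34 and 22.3 ± 2.10, and Cdh5 17.9 ± 1.58 and 21.5 ± 0.557. Below them came Plvap, Cd34, Ramp2 and Pecam1, between 12.4 and 13.3 FPKM in distal tissue, with neighbours closer than their SDs. In the distal order Egfl7 and Erg were also not apart, whereas in the proximal order it was Erg and Cdh5 that could not be separated. At the lower end of the distal order stood Vwf at 0.717 ± 0.225 FPKM, Prox1 at 0.332 ± 0.0294 and Lyve1 at 0.0153 ± 0.0147. The gap junction gene Gja5 ranked 28 of 32 in distal tissue with 1.45 ± 0.555 FPKM and 8 in proximal tissue with 14.0 ± 1.52 FPKM, and Prox1 moved from rank 31 to rank 22 with 4.43 ± 0.963 FPKM.

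Most endothelial genes were lower in the distal than in the proximal forelimb. In the 6 WT libraries 31 members were tested, Lyve1 being under the count filter, and 19 were lower and 0 higher in distal tissue, against 17.1% of all 14918 genes lower and 13.6% higher. At an unadjusted p under 0.05 the number of members was 22, beside 6021 of all 14918 genes. The estimate was negative for 30 of the 31 members, with a median of -0.32 beside 0.0049 over all genes. With all 36 libraries and each genotype weighted equally, 30 of 32 members were lower and 1, Erg, was higher, against 34.2% of 16292 genes lower and 34.4% higher. The median was then -0.35, beside -0.00052 over all genes. The size of the difference was uneven: 22 of the 30 members were lower by less than 0.5, 5 by between 0.5 and 1, and 3, Prox1, Gja5 and Lyve1, by more than 1. The summed CPM of the 32 members was 824 to 865 in distal WT and 1113 to 1169 in proximal WT libraries. Of the 19 WT calls, 12 held under all 11 other settings and leave-one-out fits. The other 7 were Flt4, Cdh5, Esam, Icam2, Cd34, Egfl7 and Vwf, and Cdh5, for one, was not called without proximal WT replicate 1 (-0.25, adjusted p = 0.0591). Genes of other tissues were lower in distal tissue too: all 15 skeletal muscle genes, 9 of 12 cartilage genes and 9 of 9 tested tendon genes were lower in distal WT tissue.

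**Figure D1:**
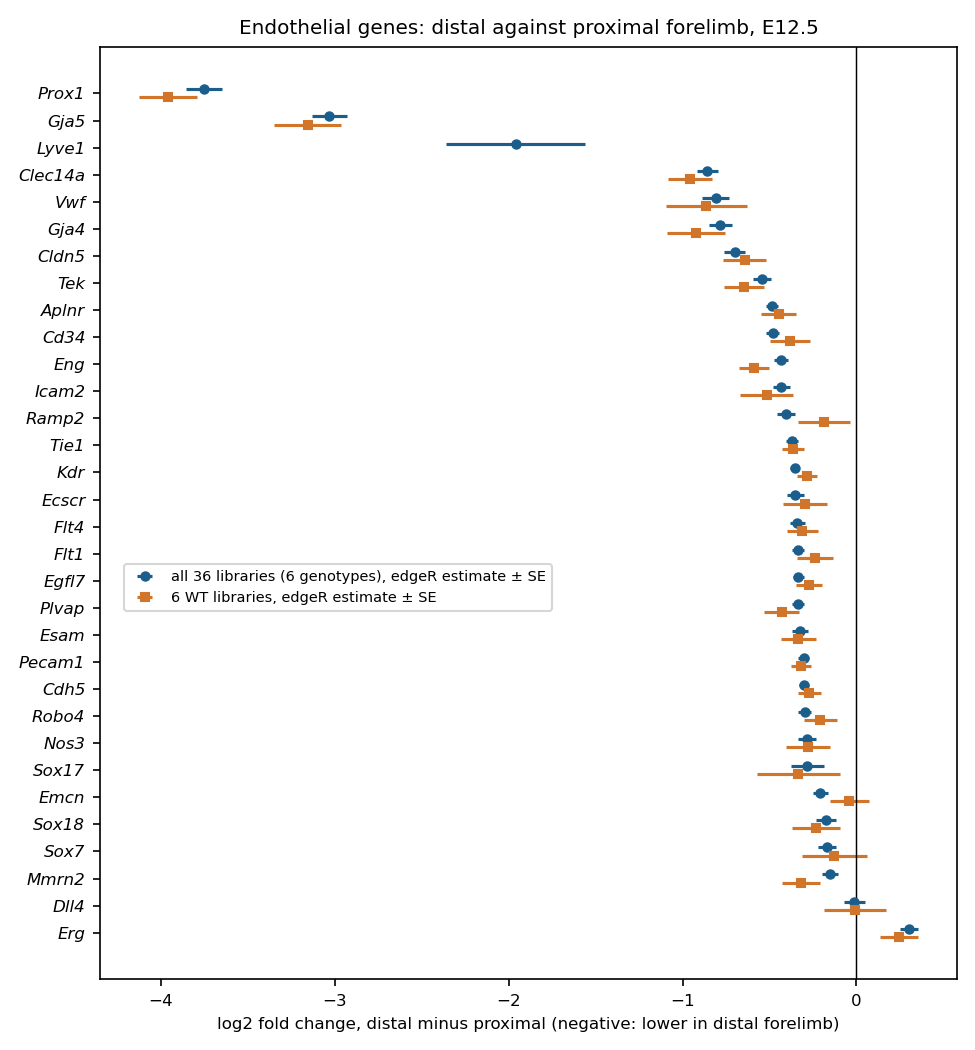
Log2 fold change of each of the 32 endothelial genes between distal and proximal forelimb, with its SE, from all 36 libraries (blue circles) and from the 6 WT libraries (orange squares). Prox1, Gja5 and Lyve1 lie below -1 on the horizontal axis, most others lie between -1 and 0, Dll4 lies at 0 and Erg lies above 0; Lyve1 has no WT estimate.

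Among the VEGF receptors, Kdr, the main signalling receptor of blood endothelium, was at 66.9, 62.8 and 65.9 CPM in distal WT and 81.1, 79.6 and 76.9 CPM in proximal WT. The groups did not overlap, and the difference was -0.28 ± 0.06 (adjusted p = 0.00539), or -0.35 ± 0.03 over all genotypes (adjusted p = 9.08e-14). Flt4, the receptor for VEGF-C, was at 20.9, 20.5 and 22.3 CPM in distal and 27.7, 24.2 and 27.0 CPM in proximal WT libraries, again without overlap (-0.31 ± 0.09, adjusted p = 0.0308). Flt1, a receptor that traps VEGF, was at 27.3, 26.4 and 24.9 CPM against 32.7, 33.4 and 26.4 CPM. One proximal library fell within the distal range, and Flt1 was called over all genotypes (-0.34 ± 0.04, adjusted p = 1.26e-09) but not in WT alone (-0.24 ± 0.10, adjusted p = 0.125).

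Both angiopoietin receptors were lower in distal tissue. Tek was at 17.5, 17.8 and 22.1 CPM in distal and 29.3, 32.7 and 27.6 CPM in proximal WT libraries, a difference of -0.64 ± 0.12 (adjusted p = 0.00322). Tie1 was at 38.9, 37.6 and 39.0 CPM against 49.3, 50.7 and 48.5 CPM (-0.36 ± 0.06, adjusted p = 0.00248). All distal values of both genes lay below all proximal ones in WT, and for Tek the estimate was the larger of the pair.

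All 5 junction and adhesion proteins were lower in distal WT tissue. Cldn5, a tight junction protein, was at 9.43, 9.51 and 10.97 CPM in distal and 14.5, 16.0 and 16.1 CPM in proximal WT (-0.64 ± 0.12, adjusted p = 0.00439). Over all genotypes each of the 18 distal libraries, at most 12.3 CPM, lay below each of the 18 proximal ones, at least 12.9 CPM. Cdh5 was at 108, 94.0 and 109 CPM against 129, 121 and 124 CPM (-0.27 ± 0.07, adjusted p = 0.0156). Pecam1, an adhesion molecule of endothelium and platelets, was at 61.1, 57 and 58.7 CPM against 72.9, 74.4 and 72.6 CPM (-0.32 ± 0.06, adjusted p = 0.00320). Neither gene overlapped between the WT groups, while both overlapped over the 36 libraries, where 7 of 18 distal libraries lay below every proximal one. The remaining adhesion genes were Icam2 with -0.52 ± 0.15 (adjusted p = 0.0319) and Esam with -0.34 ± 0.10 (adjusted p = 0.0355).

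Of the 4 transcription factors edgeR called 0 in WT, at adjusted p between 0.123 and 0.664, and Erg was the only member with a positive WT estimate. Erg, the ETS factor, was at 94.9, 119 and 93.1 CPM in distal and 80.9, 95.6 and 81.6 CPM in proximal WT. The 2 ranges overlapped, with replicate 2 highest in both tissues, and the difference was 0.25 ± 0.11 (adjusted p = 0.123). Distal and proximal libraries of the same number come from the same embryo, and with the embryo as a block the WT difference of Erg was called (0.24, adjusted p = 0.00527), as it was without the filter on low counts (adjusted p = 0.0412) and over all genotypes (0.30 ± 0.05, adjusted p = 3.04e-06). Erg is also expressed in early cartilage, which these libraries contain. The SoxF factors had negative estimates, like most members. Sox7 was at 13.5, 15.9 and 9.78 CPM in distal and 13.9, 16.2 and 12.7 CPM in proximal WT (-0.13 ± 0.19, adjusted p = 0.664). Sox18 was at 14.5, 11.7 and 16.1 CPM against 16.4, 18.2 and 15.2 CPM (-0.23 ± 0.14, adjusted p = 0.250). Both overlapped between the tissues, and all 3 SoxF genes were lower over all genotypes by small amounts: -0.17 ± 0.05 for Sox7, -0.18 ± 0.06 for Sox18 and -0.28 ± 0.09 for Sox17.

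The lymphatic pair gave the largest difference and the lowest counts. Prox1, the determining factor of lymphatic endothelium, which muscle cells also make, was at 3.28, 3.26 and 2.93 CPM in distal and 54.2, 38.7 and 54.4 CPM in proximal WT libraries. The difference was -3.96 ± 0.17 (adjusted p = 1.03e-06), equal to a 15.6-fold higher level in proximal tissue. Over the 6 genotypes the highest distal library had 8.41 CPM and the lowest proximal one 37.8 CPM. Lyve1, a hyaluronan receptor of lymphatic endothelium and some macrophages, was near the detection limit: its counts were 1, 0 and 2 in distal and 12, 1 and 2 in proximal WT libraries. It was tested only over all genotypes (-1.96 ± 0.40, adjusted p = 6.89e-05), where distal libraries held at most 4 counts and proximal libraries between 0 and 19. Prox1 was well detected in libraries where the other lymphatic marker was close to 0. The 15 skeletal muscle genes moved with Prox1, with a summed level of 29.0 to 32.4 CPM in distal and 1969 to 2060 CPM in proximal WT, and their part in its difference was not tested.

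Arterial and flow-regulated genes split. Gja5, the connexin of arterial endothelium, was at 5.74, 8.61 and 4.49 CPM in distal and 53.9, 59.2 and 53.9 CPM in proximal WT (-3.16 ± 0.19, adjusted p = 7.43e-06), an 8.91-fold higher proximal level. Within each tissue Gja5 also had the highest Pearson r of the members with the summed skeletal muscle genes (0.850 distal, 0.886 proximal, described further on). The part of muscle in the Gja5 difference was not tested. Gja4, the partner connexin of Gja5, was at 6.76, 7.29 and 5.11 CPM against 12.3, 12.04 and 11.8 CPM (-0.92 ± 0.17, adjusted p = 0.00345). In mm10 Gja5 lies at chr3:96904693-97077416 and Prox1 at chr1:190118035-190170714, and their exons share 165 bases with Gpr89 and 133 bases with Prox1os. Neither connexin overlapped between the WT tissues, and Gja5 did not overlap over all 36 libraries, with a distal maximum of 16.0 and a proximal minimum of 44.3 CPM. Nos3, the endothelial nitric oxide synthase, was at 11.2, 10.5 and 10.03 CPM against 12.96, 13.8 and 11.7 CPM (-0.28 ± 0.13, adjusted p = 0.131), and was called over all genotypes (-0.28 ± 0.05, adjusted p = 8.07e-06). Dll4, the Notch ligand of arterial and sprouting tip cells, averaged 12.4 ± 1.68 CPM in distal WT and 12.4 ± 2.62 CPM in proximal WT (SD, n = 3). Its difference was -0.01 ± 0.18 in WT and -0.01 ± 0.06 over all genotypes (adjusted p = 0.859), the only member not called in the fit of 36 libraries.

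Of the other receptors, Aplnr, the apelin receptor of veins and sprouting vessels, was at 42.8, 35.6 and 45.4 CPM in distal and 56.2, 52.0 and 60.3 CPM in proximal WT (-0.45 ± 0.10, adjusted p = 0.00947). Eng, a co-receptor for BMP and TGF-beta ligands, was at 38.6, 33.4 and 37.4 CPM against 59.6, 53.1 and 51.7 CPM (-0.59 ± 0.08, adjusted p = 0.000963). Both were free of overlap in WT. Ramp2, which pairs with the adrenomedullin receptor, was at 17.1, 11.5 and 13.8 CPM against 15.5, 16.3 and 16.2 CPM (-0.19 ± 0.15, adjusted p = 0.394). Its distal replicate 1 exceeded every proximal library, and the gene was called only over all genotypes (-0.41 ± 0.05, adjusted p = 2.71e-08). The exons of Ramp2 share 1103 bases with those of Vps25 on the same strand, so its counts are uncertain.

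Among the 9 surface and secreted proteins, 5 were lower in distal WT tissue. Clec14a, a lectin-like endothelial surface protein, was at 22.3, 21.3 and 23.4 CPM in distal and 36.8, 51.9 and 41.0 CPM in proximal WT (-0.96 ± 0.12, adjusted p = 0.000598), and no distal library of any genotype, at most 31.9 CPM, reached the proximal minimum of 32.4 CPM. Cd34, a sialomucin of capillaries and progenitor cells, was at 50.6, 42.0 and 49.6 CPM against 71.4, 53.4 and 60.1 CPM (-0.38 ± 0.12, adjusted p = 0.0354). Egfl7 was at 32.04, 28.9 and 32.4 CPM against 38.2, 38.1 and 36.3 CPM (-0.27 ± 0.08, adjusted p = 0.0242). These genes did not overlap in WT. Vwf, a clotting protein stored in endothelium, differed by -0.86 ± 0.23 (adjusted p = 0.0218) and Plvap, a protein of fenestrae and caveolae, by -0.43 ± 0.10 (adjusted p = 0.0118). The other 4, the sialomucin Emcn (-0.04 ± 0.11), the guidance receptor Robo4 (-0.21 ± 0.09), Ecscr (-0.30 ± 0.13) and the matrix protein Mmrn2 (-0.32 ± 0.11), were not called in WT, with adjusted p between 0.0525 and 0.820, and were lower over all genotypes, with estimates from -0.15 (Mmrn2) to -0.35 (Ecscr). With the embryo as a block Mmrn2 was called in WT (adjusted p = 0.0395).

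**Figure D2:**
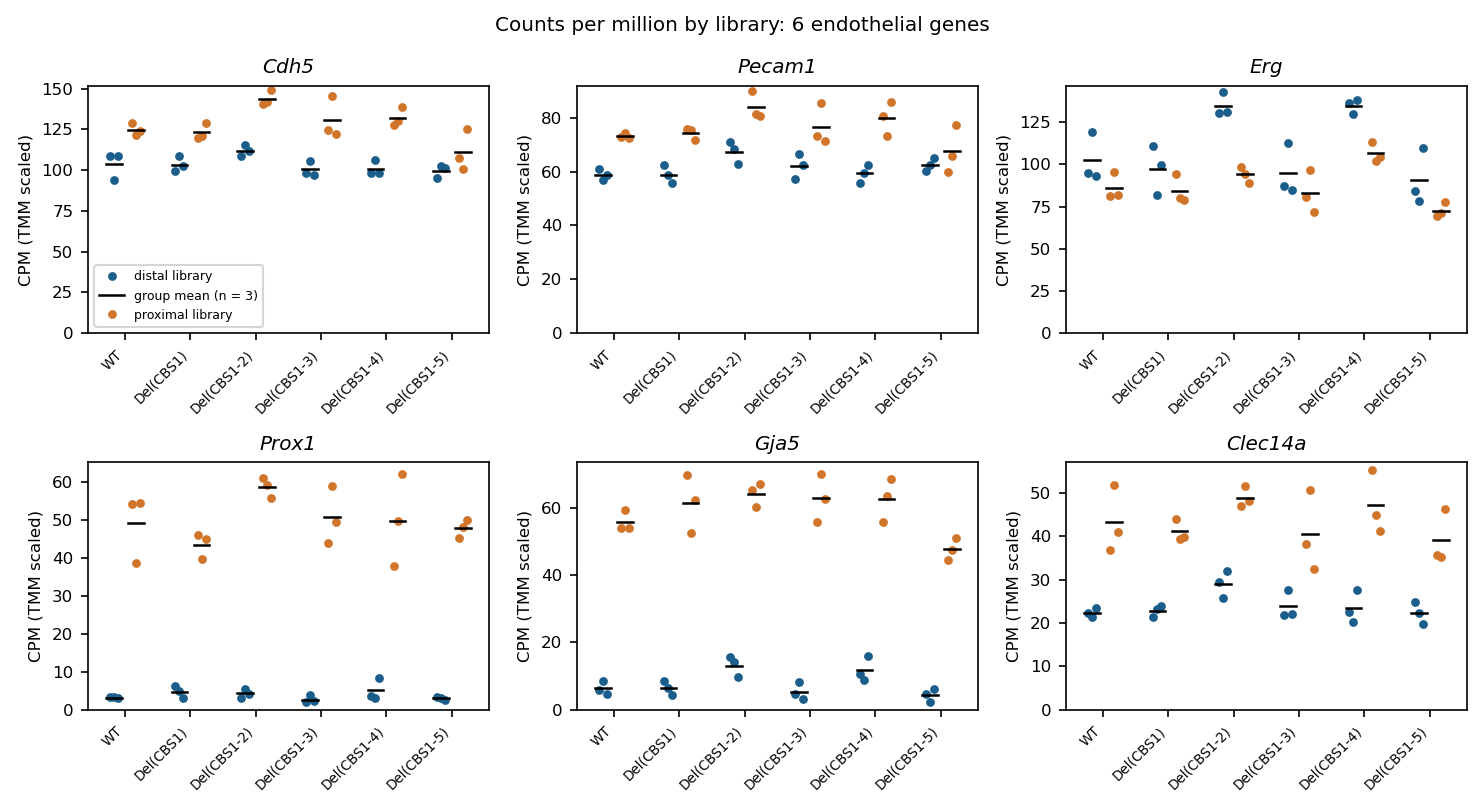
Counts relative to library size (CPM) in each of the 36 libraries for 6 endothelial genes, by genotype (horizontal axis) and tissue (colour), with the mean of each group of 3 as a bar. Cdh5 and Pecam1 sit somewhat higher in proximal libraries, Erg sits higher in distal ones, and Prox1, Gja5 and Clec14a show no overlap between the tissues.

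The difference between tissues was present in each genotype taken alone within the fit of 36 libraries. The number of members lower in distal tissue was 22 in WT, against 20.5% of all genes lower. It was 23 in Del(CBS1), against 20.3%, and 25 in Del(CBS1-2), against 21.9%. In Del(CBS1-3) 26 members were lower, against 19.5%, and in Del(CBS1-4) 23 were, against 21%. Del(CBS1-5) had the fewest, 15 members, against 20.3%. Prox1 had the smallest p in all 6 genotypes. The tests of whether the tissue difference itself depended on the allele are given further on.

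Members also varied together among libraries of a group. The same figure was not computed for other genes, so it is not shown to be particular to the members. Distal and proximal libraries also come in pairs from the same embryo. The deviation of each gene from its group mean was correlated with the mean deviation of the other members over 36 libraries, as a description without a test, since members share the libraries and their scaling. The correlation was 0.755 for Tie1, 0.719 for Pecam1, 0.606 for Esam and 0.589 for Cdh5, and it was above 0 for 30 of 32 members. At the other end stood Flt4 at -0.0410, Ramp2 at -0.0301 and Robo4 at 0.0998.

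Promoter letters of members are shown because ETS factors such as Erg bind a core of GGAA in endothelial promoters. The windows searched were those on hand. Over all genotypes their genes were lower in distal tissue, apart from Erg, which was higher, and Dll4, which was not called. RefSeq start sites on GRCm38.p6 were on hand for 17 of the 32 genes, as 22 windows of 300 bases, from 250 before to 50 after the start. The ETS motif searched was CAGGAAG on both strands, and it was present in 6 of 22 windows (27.3%), beside 13.3% of all 32851 windows. By gene, CAGGAAG was present in 5 of 17, beside 14.8% of all 27025 genes. A second ETS motif, CCGGAAG, was in 0 of 22 windows, beside 8.86% of all. Either of these 2 was in 6 of 22 windows (27.3%), beside 20.9% of all. The longer AACAGGAA, which contains part of the first motif, was in 2 of 22 (9.09%), beside 2.65% of all, and the Sox motif ACAAAG in 5 of 22 (22.7%), beside 18.7%. A match says only that the letters are there. The windows of Emcn (chr3:137340828-137341127), Cd34 (chr1:194938571-194938870) and Robo4 (chr9:37401722-37402021) hold a single match each, and 1 window of Egfl7 (chr2:26580833-26581132) holds 2. Another window of Egfl7 (chr2:26583615-26583914) and 1 of Erg (chr16:95459299-95459598) also hold a single match each and are not printed. Erg was the member higher in distal tissue over all genotypes. The window of Gja5 (chr3:97032152-97032451), the member with the largest tissue difference after Prox1, holds no ETS match. The 5 windows printed below lie on the plus strand and read 5′ to 3′, with CAGGAAG or its reverse complement CTTCCTG in capitals.
Emcn: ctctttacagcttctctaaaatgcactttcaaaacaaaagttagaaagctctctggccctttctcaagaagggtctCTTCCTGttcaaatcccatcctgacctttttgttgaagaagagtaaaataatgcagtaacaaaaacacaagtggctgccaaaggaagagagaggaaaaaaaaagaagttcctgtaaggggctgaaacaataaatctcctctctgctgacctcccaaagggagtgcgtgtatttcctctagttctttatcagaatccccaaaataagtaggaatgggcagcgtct
Cd34: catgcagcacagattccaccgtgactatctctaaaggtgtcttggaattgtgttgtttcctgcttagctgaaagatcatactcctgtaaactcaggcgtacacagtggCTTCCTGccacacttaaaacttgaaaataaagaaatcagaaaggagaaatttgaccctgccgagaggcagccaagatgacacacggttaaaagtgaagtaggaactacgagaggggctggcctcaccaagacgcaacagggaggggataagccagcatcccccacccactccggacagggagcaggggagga
Robo4: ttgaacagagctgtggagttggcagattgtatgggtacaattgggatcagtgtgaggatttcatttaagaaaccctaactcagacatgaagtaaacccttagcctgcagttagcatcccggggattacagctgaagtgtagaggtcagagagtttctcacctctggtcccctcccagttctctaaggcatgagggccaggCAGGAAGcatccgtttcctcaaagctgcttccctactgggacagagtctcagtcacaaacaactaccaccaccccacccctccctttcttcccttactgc
Egfl7: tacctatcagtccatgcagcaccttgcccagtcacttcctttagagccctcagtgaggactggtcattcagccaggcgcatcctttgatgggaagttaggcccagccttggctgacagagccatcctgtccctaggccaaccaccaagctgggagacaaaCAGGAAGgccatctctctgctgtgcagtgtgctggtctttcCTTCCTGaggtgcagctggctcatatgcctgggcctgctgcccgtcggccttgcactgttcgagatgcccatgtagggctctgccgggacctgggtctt
Gja5: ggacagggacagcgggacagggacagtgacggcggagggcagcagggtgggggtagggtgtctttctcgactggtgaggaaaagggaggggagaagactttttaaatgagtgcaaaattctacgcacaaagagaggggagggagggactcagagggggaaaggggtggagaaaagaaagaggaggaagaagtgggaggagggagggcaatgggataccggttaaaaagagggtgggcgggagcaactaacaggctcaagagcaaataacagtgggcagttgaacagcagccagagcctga

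The genes around these markers, from lists outside the 32, are given beside the shares of all genes in the same WT comparison, 17.1% lower and 13.6% higher in distal tissue. Of 12 VEGF and angiopoietin ligands and co-receptors, 6 were lower and 2 higher in distal WT tissue. Cxcl12, a chemokine that guides vessels, was lower (-1.90 ± 0.12), as was Vegfc, the growth factor of lymphatic vessels (-1.004 ± 0.149). Of 12 Notch and ephrin genes 5 were lower and 2 higher: Unc5b, a guidance receptor of tip cells, was higher by 1.53 ± 0.12, and Heyl, a Notch target, was lower (-2.16 ± 0.20). Of 12 tested endothelial transcription factors outside the members 5 were lower, led by Foxc2 (-2.10 ± 0.14) and Mef2c (-1.72 ± 0.18), and 3 were higher. Of 18 other endothelial genes tested 7 were lower and 0 higher, with Palmd (-2.08 ± 0.12) and Rhoj (-1.22 ± 0.08) first. In the list for mural cells, which accompany vessels, 6 of 9 tested genes were lower, with Acta2 (-4.73 ± 0.15) and Abcc9 (-1.81 ± 0.19) first. Skeletal muscle genes were lower in the same distal WT libraries. The part of muscle and other limb cells in the differences of these lists was not tested. Of 10 tested erythroid genes only Hbb-y was called, higher in distal WT tissue by 0.54 ± 0.08, and the 7 tested megakaryocyte and platelet genes had a median of 0.56, while of 14 macrophage and leukocyte genes Adgre1 was lower (-0.91 ± 0.21).

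In the mutants few endothelial genes moved. Across 10 comparisons of an allele with WT of the same tissue, 2 gene calls were made, both with Del(CBS1-2): Plvap was higher in distal and Aplnr higher in proximal tissue. Plvap was at 45.9, 47.6 and 48.7 CPM in distal Del(CBS1-2) and at 39.9, 33.2 and 42.5 CPM in distal WT. The mutant libraries lay above all WT libraries, with a difference of 0.28 ± 0.08 (adjusted p = 0.0395). It was the only member called of 31, against 4.47% of all 15361 genes higher in that comparison, a share near the background. The call was lost with the replicate block (adjusted p = 0.0502) and in a fit of the 6 libraries alone (adjusted p = 0.0882). Within a tissue, that block joins embryos of different genotypes by their number only. Leaving out any 1 library other than distal WT replicate 3 also lost the call (adjusted p between 0.0548 and 0.166). The estimate was down to 0.18 without distal WT replicate 2. Distal Del(CBS1-2) libraries also stood apart in other lists: 5 of 12 cartilage genes, Myod1 and Pax7 among 15 skeletal muscle genes, and C1qa and Adgre1 among 14 macrophage genes were higher than in WT. The summed muscle level there was 59.96 to 116 CPM, beside 29.0 to 32.4 CPM in distal WT, and its part in the Plvap difference was not tested. All 3 embryos of Del(CBS1-2) were female and 1 of the 3 WT embryos was male, by Xist and genes of the Y chromosome. Without that embryo, WT replicate 3, Plvap was called (0.35, adjusted p = 0.0190).

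Aplnr was at 77.3, 75.2 and 75.2 CPM in proximal Del(CBS1-2) and at 56.2, 52.0 and 60.3 CPM in proximal WT. The groups did not overlap, and the 3 mutant libraries were the closest together of any proximal group. The difference was 0.43 ± 0.08 (adjusted p = 0.0155), the only call among 32 members, against 0.253% of 15813 genes higher. The call was lost with limma on FPKM values (0.30, adjusted p = 0.205) and when proximal WT replicate 1 or any 1 of the 3 mutant libraries was left out (adjusted p between 0.0517 and 0.0853). Without the male WT replicate 3 it was kept (0.49, adjusted p = 0.0158). Beside it, 28 of 32 members had a positive estimate in proximal Del(CBS1-2), with a median of 0.18 against -0.0026 over all genes. An unadjusted p under 0.05 was found for 13 of 32 members, beside 3084 of all 15813 genes. The summed member level was 1281 to 1321 CPM, above the 1113 to 1169 CPM of proximal WT. Of 19 endothelial genes outside the members 1, Cd93, was higher (0.32, adjusted p = 0.0358). The 15 skeletal muscle genes were at 2475 to 2759 CPM in the same libraries and 1969 to 2060 CPM in WT, with 0 genes called and a median of 0.39, and the 14 macrophage genes at 139 to 167 CPM against 108 to 140 CPM. Their part in the Aplnr difference was not tested.

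**Figure D3:**
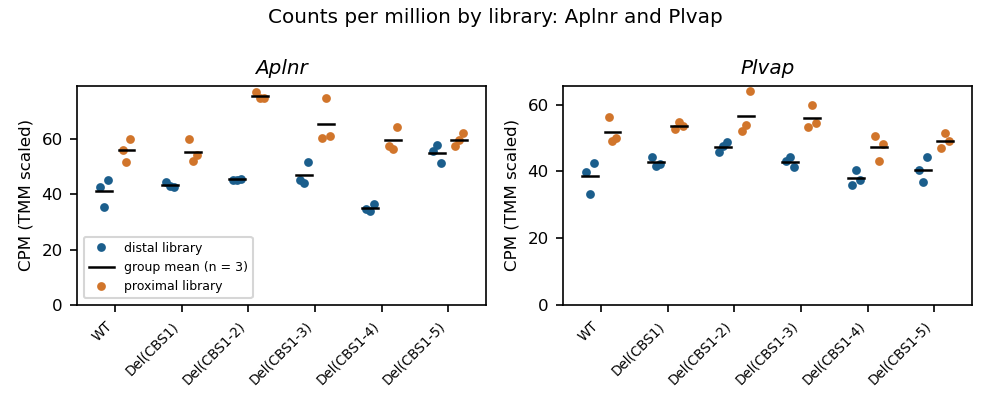
CPM of Aplnr and Plvap in each library by genotype and tissue, with group means as bars (n = 3). The 3 proximal Del(CBS1-2) libraries lie at 75.2 to 77.3 CPM of Aplnr, above all proximal WT libraries, and the 3 distal Del(CBS1-2) libraries lie at 45.9 to 48.7 CPM of Plvap, above all distal WT libraries.

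Aplnr is also the member nearest to the deleted sites among the 5 on chromosome 2, with its gene at chr2:85136225-85139923 and 10.5 Mb from Hoxd13. Eng is 42.0 Mb away, Dll4 44.7 Mb, Egfl7 48.1 Mb and Sox18 107 Mb. Among all members only Aplnr and Plvap, which lies on chromosome 8, were called in any allele. Whether distance plays a part was not tested. Aplnr had the smallest p of the members in distal Del(CBS1-5) as well, at 55.8, 58.0 and 51.4 CPM against 42.8, 35.6 and 45.4 CPM in distal WT. The 2 groups did not overlap, but the difference of 0.40 ± 0.08 missed the threshold (adjusted p = 0.0607). It was called by DESeq2 (adjusted p = 0.00204), without the filter on low counts (adjusted p = 0.000361), without distal WT replicate 3 (adjusted p = 0.00682) and without mutant replicate 3 (adjusted p = 0.0290), and was at 0.189 with limma. In distal Del(CBS1-4) the gene was at 34.8, 34.0 and 36.5 CPM, with an estimate of -0.24 ± 0.08 (adjusted p = 0.159). In order of the alleles the distal estimates of Aplnr were 0.07, 0.12, 0.17, -0.24 and 0.40, and the proximal ones -0.02, 0.43, 0.23, 0.09 and 0.10, all against the same 3 WT libraries of each tissue.

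In the other 8 comparisons edgeR called 0 members. In distal tissue the share of all genes called in either direction was 0.0325% in Del(CBS1), 0.00651% in Del(CBS1-3), 0.0846% in Del(CBS1-4) and 0.0651% in Del(CBS1-5). The members with an unadjusted p under 0.05 numbered 1, 2, 6 and 4 of 31 in that order, beside 1488, 2135, 2347 and 2008 of all 15361 genes. The smallest p belonged to Tek (0.39 ± 0.12), Vwf (-0.51 ± 0.20), Erg (0.39 ± 0.13) and Aplnr. DESeq2 called 1 member, in Del(CBS1-5), and limma 0 in each. In proximal tissue the share of all genes called was 0.0443% in Del(CBS1), 0.0696% in Del(CBS1-3), 0% in Del(CBS1-4) and 0.0696% in Del(CBS1-5). Members at an unadjusted p under 0.05 numbered 1, 5, 2 and 8 of 32, beside 1123, 2066, 2229 and 1025 of all 15813 genes. They were led by Eng (-0.19 ± 0.08), Cd34 (0.29 ± 0.10), Erg (0.31 ± 0.09) and Eng (-0.29 ± 0.08), and DESeq2 and limma called 0 in each. In proximal Del(CBS1-5), compared with the same WT libraries as Del(CBS1-2), 24 of 32 estimates were negative with a median of -0.12, and the summed member level was 1001 to 1134 CPM. Its muscle genes summed to 1522 to 1898 CPM, the lowest range of the proximal groups, and its erythroid genes to 3041 to 3463 CPM against 1784 to 2441 CPM in WT.

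**Figure D4:**
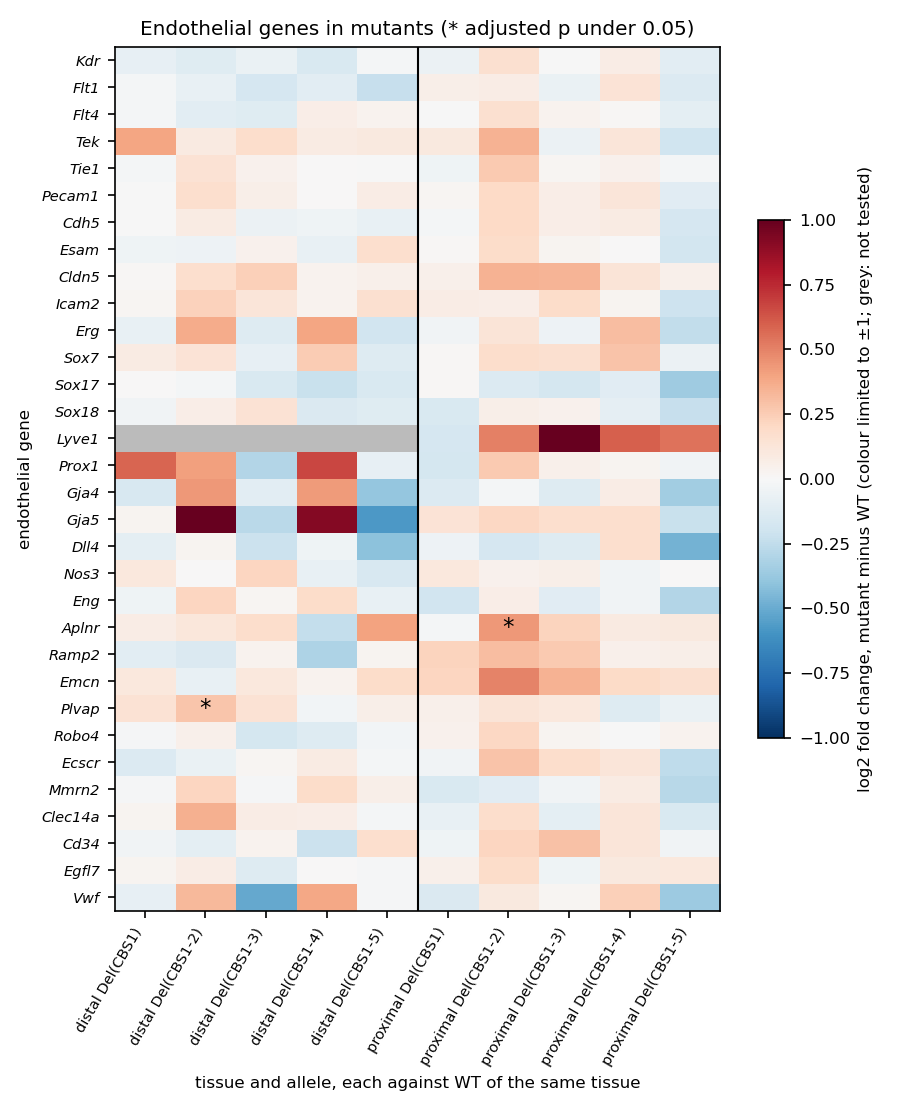
Log2 fold change of each endothelial gene (rows) in each allele against WT of the same tissue (columns, 5 distal and 5 proximal), with red for higher and blue for lower in the mutant and an asterisk where the adjusted p was under 0.05. The 2 asterisks mark Plvap in distal and Aplnr in proximal Del(CBS1-2); the proximal Del(CBS1-2) column is mostly red and the proximal Del(CBS1-5) column mostly blue.

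Whether the effect of an allele differed between the tissues was tested gene by gene. In the 5 tests of the interaction edgeR called 0 of 32 members, and so did DESeq2, limma and the fit with the embryo as a block, while without the filter on low counts 2 were called for Del(CBS1-2) and 1 for Del(CBS1-4). The counts without the filter have no share over all genes under that setting beside them. In the main fit the share of all 16292 genes called was 0% for Del(CBS1), 0.0491% for Del(CBS1-2), 0.00614% for Del(CBS1-3), 0.0184% for Del(CBS1-4) and 0% for Del(CBS1-5). Members with an unadjusted p under 0.05 numbered 0, 8, 0, 4 and 4 of 32, beside 345, 1815, 642, 995 and 966 of all 16292 genes. The smallest p was that of Emcn for Del(CBS1-2) (-0.55 ± 0.16, edgeR adjusted p = 0.150). Emcn was at 20.4, 20.6 and 18.7 CPM in distal and 31.1, 29.6 and 29.4 CPM in proximal Del(CBS1-2), against 20.9, 19.5 and 21.7 CPM and 22.6, 18.3 and 23.0 CPM in WT. Its 3 proximal mutant libraries lay above all WT libraries, and its distal ones lay within or below the WT range. For Del(CBS1) the smallest p was that of Prox1, for Del(CBS1-3) that of Vwf, and for Del(CBS1-4) and Del(CBS1-5) that of Aplnr.

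Several endothelial genes were higher in libraries with more muscle RNA. Across the 18 proximal libraries, log2 CPM of Gja5 and of the summed skeletal muscle genes had a Pearson r of 0.886 and a Spearman rho of 0.903, each with p = 1e-05, the smallest that 100000 permutations can give (adjusted p = 0.00064 each over 64 relations, 32 members in 2 tissues). The permutations, here and below, moved all 18 libraries of a tissue freely across genotypes. Their p therefore does not allow for the grouping of libraries by genotype, and no p was computed within genotypes. The r of Gja5 was 0.820 without the 2 libraries of most extreme muscle level and 0.848 within genotypes. For Cdh5 r was 0.842 and rho 0.810 (permutation p = 2e-05 and 0.00012, adjusted p = 0.00064 and 0.00256), with r = 0.772 without 2 libraries and 0.606 within genotypes. Aplnr had r = 0.717 and rho = 0.596 (permutation p = 0.00081 and 0.0103, adjusted p = 0.00483 and 0.0308), with 0.716 and 0.777 in the same checks. The relation with muscle was computed for the members only, so the counts of members that passed have no share over all genes beside them. By Pearson's r, 19 of 32 members passed in proximal tissue, all positive, with r between 0.00569 and 0.886 over all members and a median of 0.601. In distal tissue 8 members passed by Pearson's r, all positive, while r over all 32 ran from -0.515 to 0.850 with a median of 0.194 and was positive for 22. By Spearman's rho, Esam (rho = -0.587, permutation p = 0.0118, adjusted p = 0.0308) and Emcn (rho = -0.577, permutation p = 0.0137, adjusted p = 0.0313) passed in the negative direction. Within genotypes r was 0.0584 for Esam and 0.0271 for Emcn, and it was 0.170 for Erg, 1 of the 8, against 0.635 over all distal libraries. Gja5 led again, with r = 0.850 and rho = 0.868 (permutation p = 4e-05 and 3e-05, adjusted p = 0.0008 and 0.00096), 0.769 without 2 libraries and 0.671 within genotypes.

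Muscle was not alone in this. In proximal libraries Cdh5 had r = 0.760 with the cartilage list and 0.781 with the tendon list, and rho = 0.738 and 0.767 (permutation p of r = 0.00027 and 0.00012, adjusted p = 0.00144 and 0.00072 over 48 relations, p of rho = 0.0007 and 0.00026). Without 2 libraries these r were 0.722 and 0.770, and within genotypes 0.667 and 0.602. The epidermis list (r = 0.720, rho = 0.647, permutation p = 0.00069 and 0.00472, adjusted p = 0.00301 and 0.0142) and the macrophage list (r = 0.707, rho = 0.792, permutation p = 0.00128 and 0.00021, adjusted p = 0.00439 and 0.00126) passed as well, with r of 0.801 and 0.602 without 2 libraries and 0.429 and 0.448 within genotypes. With the mural cell list r was 0.325 and rho 0.238 (permutation p = 0.190 and 0.340), and with the erythroid list r was -0.530 (permutation p = 0.0220, adjusted p = 0.0459) and rho -0.329 (permutation p = 0.181), and without 2 libraries r was -0.162, so that relation rests on those libraries. In distal tissue Cdh5 did not pass with the muscle, cartilage or tendon list (r = 0.482, 0.410 and 0.329, adjusted permutation p = 0.0835, 0.143 and 0.258). It passed with the macrophage list (r = 0.604, rho = 0.633, adjusted permutation p = 0.0198 and 0.0178). With the mural cell list it passed by r (0.680, adjusted permutation p = 0.00531) but not by rho (0.521, 0.0634). Gja5 in distal tissue had r = 0.875 and rho = 0.837 with the cartilage list (permutation p = 1e-05, the smallest possible, and 5e-05, adjusted p = 0.00024 and 0.0006), with 0.854 without 2 libraries and 0.676 within genotypes. With the erythroid list it had r = -0.828 and rho = -0.868 (permutation p = 3e-05 and 2e-05, adjusted p = 0.00024 and 0.00048), with -0.866 and -0.696 in the same checks. The lists share libraries and scaling with Cdh5 and Gja5. Whether tissue composition or the place of the cut plays a part in these relations was not tested.

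**Figure D5:**
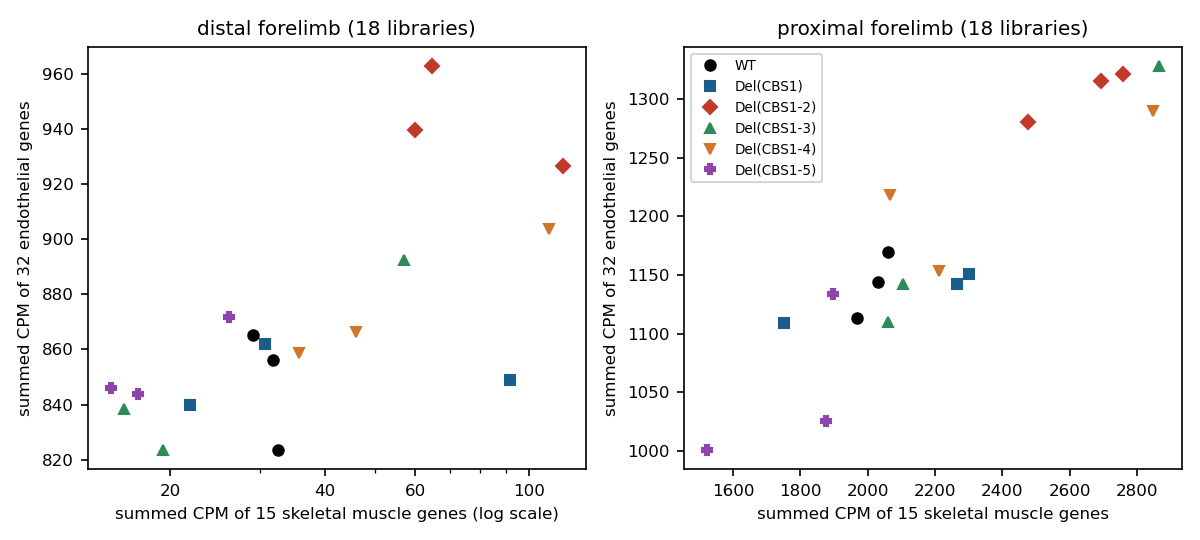
Summed CPM of the 32 endothelial genes (vertical axis, not from 0) against summed CPM of 15 skeletal muscle genes (horizontal axis, logarithmic in the distal panel), with 1 point per library and genotypes by symbol. In proximal tissue the 2 lowest endothelial sums, 1001 and 1025 CPM, are Del(CBS1-5) libraries, and the 3 Del(CBS1-2) libraries lie at the upper right.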

How the data were processed

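Polyadenylated RNA of single forelimb pairs was sequenced as stranded single-end reads of 50 bases, per the labels' protocols. Tools listed without roles in the submitters' processing notes are STAR 2.7.0, bedtools 2.27.1, Cufflinks 2.2.1 and cutadapt 1.16, with the build mm10. The authors deposited raw counts per gene and, separately, FPKM values. The count table lacks 4222 genes of the FPKM table, on X (2618), Y (1568) and M (36), so sex was read from FPKM.

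Counts were tested with edgeR 4.0.16 (R 4.3.3; TMM, filterByExpr, quasi-likelihood F test), adjusted over all genes tested. Mutants were compared with WT in a fit of all 18 libraries of a tissue, the tissues in the 6 WT libraries and in a fit of all 36, which also gave interactions. SE is the absolute log2 fold change divided by the square root of F. Simulated counts were run only for the WT fit and for Del(CBS1-2) against WT in each tissue, and their outcome is not given here. Libraries were drawn independently, without the shared deviation of 2 tissues of an embryo. The fit of all 36 libraries and the interactions were not simulated. Alternatives were DESeq2 1.42.0, RLE factors, no filter on low counts, limma 3.58.1 on log2(FPKM + 0.1) for genes with at least 0.5 FPKM in 3 libraries, a replicate block, the 2 groups alone, and leaving out each library or genotype. Same-numbered distal and proximal libraries deviated together in 18 of 18 pairs (r 0.165 to 0.557) and matched in sex, so the number marks an embryo. Replicates differed by more than counting noise (smallest chi-square per degree of freedom 2.56).

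Members and lists were chosen with earlier results of these data known. Single-library values are given for Pecam1, Cdh5, Kdr, up to 3 members per role with the smallest p, and members called in a mutant. Other members are given by difference, count or range. Of other lists, the genes of smallest p are named. Genes added after their values were seen are Emcn, and Aplnr in Del(CBS1-4) and Del(CBS1-5).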

Additional observations from a re-analysis of the deposited data

Results flagged for a closer look

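The estimates of Dll4 between tissues had opposite signs in 2 genotypes, and edgeR called neither: 0.21 ± 0.15 in Del(CBS1-2) (adjusted p = 0.252) and -0.22 ± 0.15 in Del(CBS1-4) (adjusted p = 0.258). In Del(CBS1-2) it was at 13.2, 13.4 and 11.9 CPM in distal and 11.2, 11.4 and 10.6 CPM in proximal tissue of the same embryos, so that the distal value exceeded the proximal one in all 3 embryos, by 1.75 CPM on average. In Del(CBS1-4) it was at 10.1, 12.3 and 13.7 CPM in distal and 13.7, 14.4 and 13.8 CPM in proximal tissue, and the distal value was below the proximal one in all 3, with a mean difference of -1.95 CPM. The 2 means lie 3.70 CPM apart, and this difference was not tested. Dll4 was found by searching all members for opposite signs in 2 genotypes, each sign shared by all 3 embryos. The agreement of the embryos is therefore the rule of the search and gives no support to a difference.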

How the results depend on the processing

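The 31 calls over all genotypes numbered 31 without any 1 library and 29 with limma, and 29 of them held under all 47 alternatives. The 19 WT calls became 12 to 16 without 1 library (12 without proximal WT replicate 1) and 21 with the replicate block. In distal Del(CBS1-2) the single call became 2 with DESeq2, limma or the 2 groups alone, 4 without the filter, 0 with the block and 0 to 1 without 1 library. In proximal Del(CBS1-2) it became 2 with DESeq2, 6 without the filter, 0 with limma, 3 with the 2 groups alone and 0 to 1 without 1 library. Comparisons with 0 calls gave, without the filter, 2 in distal Del(CBS1-4), 1 in distal Del(CBS1-5), 1 in proximal Del(CBS1-3), 1 in proximal Del(CBS1-4), 2 in proximal Del(CBS1-5), and 2 and 1 in the Del(CBS1-2) and Del(CBS1-4) interactions. DESeq2 gave 1 in distal Del(CBS1-5), and leaving out 1 library gave 0 to 2 in distal Del(CBS1-4) and 0 to 1 in distal Del(CBS1-5). Calls over all genes moved as well, from 114 to between 30 (limma) and 1367 (no filter) in proximal Del(CBS1-2). For the other mutant and interaction comparisons, calls over all genes under these settings are not given. Their member counts therefore cannot be set against a share of all genes. Within a tissue, same-numbered WT and mutant libraries deviated together in 4 of 15 pairs in each tissue. These were all 3 pairs of Del(CBS1-3) (r 0.123 to 0.312 in distal and 0.145 to 0.345 in proximal tissue) and replicate 2 of Del(CBS1-2). The main fits did not pair WT and mutant samples by number, and why Del(CBS1-3) differed was not tested. Estimates that changed sign were all uncalled. For Dll4 in WT they became 0.0209 with limma and 0.0024 with the block, and ranged from -0.114 to 0.179 without 1 library. For Emcn in WT they became 0.0011 with limma and ranged from -0.142 (without proximal WT replicate 2) to 0.0205 (without proximal WT replicate 3), and for Sox7 from -0.294 to 0.0461 (without distal WT replicate 2 or 3). For Dll4 over all genotypes they became 0.0069 and 0.0201 without Del(CBS1-3) or Del(CBS1-4), and ranged from -0.0476 to 0.0188 without 1 library. The cause was not tested. Lyve1, at 0 to 19 counts, is limited by depth. With 3 libraries a group, small differences can be missed, and p-values cover only the spread between these embryos.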
